A study of Mus musculus with 8 samples.

Results

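The 10 genes described here encode the 5 subunits of the transcription factor NF-kB (Nfkb1, Nfkb2, Rel, Rela and Relb) and 5 proteins grouped here as its inhibitors (Nfkbia, Nfkbib, Nfkbie, Nfkbiz and Tnfaip3). The product of Nfkbiz also works as a co-activator. They were taken by symbol from a deposited table of 26848 genes, in which each name has 1 row. RNA came from RAW264.7, a macrophage-like line from a mouse tumour, grown on PEEK (polyetheretherketone), a plastic of which bone implants are made. The surface was nano- and microstructured in 4 libraries (structured 1 to 4) and smooth in 4 libraries (smooth 1 to 4), and all 8 came from this 1 cell line with no other treatment in the labels. The labels name biological replicates without saying that they were separate cultures, so p-values measure the spread between these libraries, which may be technical. The labels do not state how the structured surface was made or how long cells stayed on it. The comparison asks whether transcripts of NF-kB and its inhibitors differed between cells on structured and on smooth PEEK.

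In resting macrophages NF-kB dimers are held in the cytoplasm by IkB proteins. Signals from Toll-like, tumour necrosis factor and interleukin-1 receptors activate the IKK kinases, which mark IkB for destruction, and the freed dimers enter the nucleus and switch on cytokine, chemokine and survival genes. Among the induced genes are several of the inhibitors, Nfkbia and Tnfaip3 included, which close a negative feedback loop, and also Rel, Nfkb1, Nfkb2 and Relb. Activation itself occurs through protein degradation and movement into the nucleus, which RNA levels do not measure.

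At this depth none of the 10 genes passed the test between surfaces. Of the 10, 8 had 95% intervals of the fold change that lay within 1.25-fold in either direction, against 47.6% of all tested genes. These shares were not matched for expression level. Low counts give wider intervals, and all tested genes include many at low counts. The test was edgeR's two-sided quasi-likelihood test with Benjamini-Hochberg (BH) adjustment over 16006 genes, which called 601 genes, or 3.75% of those tested, at an adjusted p under 0.05. Of these 161 were higher and 440 lower on structured PEEK, a split that became 56 and 84 after a correction for GC content and length. Of the 10 genes, 5 had an unadjusted p under 0.05 (Nfkb1, Rela, Nfkbia, Nfkbie and Tnfaip3), a mark that 2999 genes, or 18.7% of those tested, also reached. Nfkb1, Rela and Tnfaip3 were lower on structured PEEK and Nfkbia and Nfkbie were higher, with differences between -13.8% and 34.2% of the level on smooth PEEK. DESeq2 gave all but Nfkbie an adjusted p and called 1, Nfkb1, at a BH-adjusted p of 0.0486, where it called 14.2% of the 9669 genes that it gave an adjusted p. Voom with limma called 0 of the 10, with 3.67% of tested genes called and a lowest BH-adjusted p of 0.107 among the 10.

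Levels per library are given as counts per 1000000 count units (CPM), a scale that allows a gene to be compared between libraries but not with another gene. Library totals ran from 64479829 to 73098735 units. The deposited counts are estimated values, in which 4 occurs 8018 times, 3 occurs 3344 times and 5 occurs 2180 times. How many units 1 sequenced fragment is worth is not known, and neither is the number of molecules behind each value. Correlations of log2 CPM between libraries were 0.968 to 0.982 within a surface and 0.968 to 0.979 between surfaces. The summed level of 12 macrophage markers was 7113 to 7256 CPM on structured PEEK and 6810 to 7289 CPM on smooth PEEK. Of these Mertk stayed under 1 CPM in every library. Of the 11 markers tested, 0 rose and 1 fell on structured PEEK, and 4 had an unadjusted edgeR p under 0.05. In bulk RNA, fewer cells of a type and less RNA per cell cannot be told apart. The summed level of 23 hepatocyte markers, which a macrophage culture should lack, was 180, 171, 355 and 625 CPM in structured 1 to 4 and 441, 128, 130 and 86.9 CPM in smooth 1 to 4. The 20 neutrophil markers in the table summed to 73.1, 131, 128 and 137 CPM in structured 1 to 4 and to 61.0, 66.6, 70.5 and 69.1 CPM in smooth 1 to 4. Mmp9, which macrophages also express, made up most of the smooth sums, and the other 19 markers summed to 20.6, 76.6, 76.4 and 88.3 CPM in structured 1 to 4 and to 7.7, 6.27, 6.54 and 6.17 CPM in smooth 1 to 4. Of 9 neutrophil markers tested, 6 rose on structured PEEK, with a median log2 fold change of 4.51. Of 19 skeletal muscle markers tested, 4 fell on structured PEEK and 14 had an unadjusted p under 0.05, with a median log2 fold change of -2.67. The summed level of the 21 muscle markers was 63.4, 59.9, 56.1 and 56.8 CPM in structured 1 to 4 and 108, 68.9, 58.8 and 78.7 CPM in smooth 1 to 4. With the hepatocyte level as a covariate in edgeR, 0 of the 10 genes were called and the same 5 had an unadjusted p under 0.05. Without smooth 1 and structured 4, the libraries with the highest hepatocyte level on each surface, 0 were called and Nfkb1 and Nfkbia were the 2 with an unadjusted p under 0.05. The part of the neutrophil and muscle markers in the differences below was not tested.

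**Figure D1:**
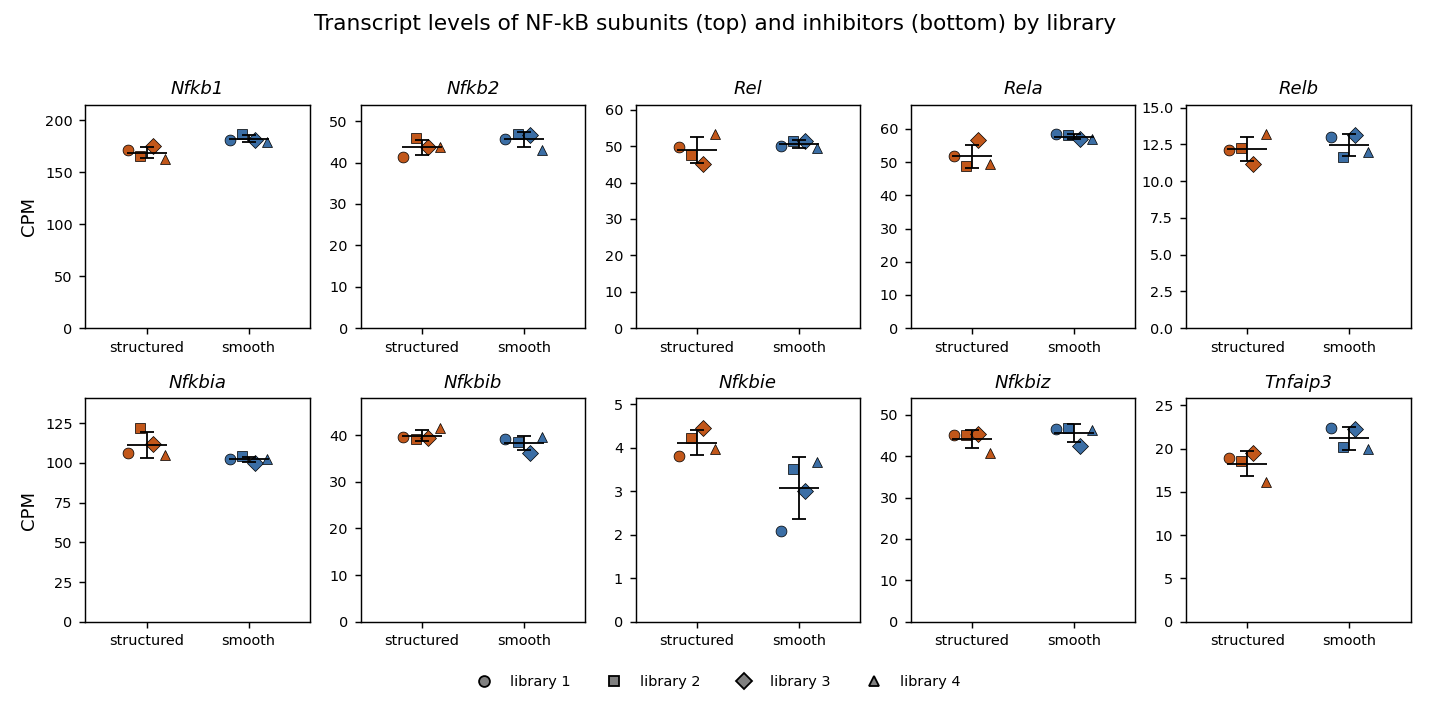
Level of each gene in CPM (y axis, from 0, own scale per gene) in the 4 libraries on structured PEEK and the 4 on smooth PEEK, with a symbol per library, the mean as a line and the SD as bars. The ranges of the surfaces do not overlap for Nfkb1, Rela, Nfkbia, Nfkbie and Tnfaip3, and they overlap for the other 5 genes.

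Several of these genes carry in their own promoters the sequence that NF-kB binds, the kappaB site. RefSeq promoter windows on GRCm38.p6 were matched by symbol for 7 of the 10 genes (Nfkb2, Rel, Rela, Nfkbia, Nfkbib, Nfkbie and Tnfaip3). The 250 bases upstream of each start were searched on both strands for the 10-base kappaB consensus, and overlapping matches were kept. It was found in 5 of the 7 genes (71.4%), in 13 of 37 classical NF-kB target genes with a window (35.1%) and in 2225 of all 27025 genes with a window (8.23%). Counted by window it was in 2382 of 32851 (7.25%). Rela and Nfkbib had no match in their windows. A match is a description of these letters and does not show that NF-kB was bound in these cells.

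The upstream sequences of 3 genes with a match are shown whole, each read 5′ to 3′ toward the start of its gene, since they cover a subunit and 2 IkB genes of the feedback loop. Capitals mark the bases of the kappaB match.
Rel, chr11:23770970-23771219, minus strand: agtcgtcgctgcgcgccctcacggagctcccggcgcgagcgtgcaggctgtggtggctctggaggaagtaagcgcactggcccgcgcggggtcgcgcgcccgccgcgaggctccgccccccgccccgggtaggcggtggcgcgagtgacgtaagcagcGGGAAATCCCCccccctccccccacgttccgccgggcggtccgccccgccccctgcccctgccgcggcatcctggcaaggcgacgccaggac
Nfkbia, chr12:55492648-55492897, minus strand: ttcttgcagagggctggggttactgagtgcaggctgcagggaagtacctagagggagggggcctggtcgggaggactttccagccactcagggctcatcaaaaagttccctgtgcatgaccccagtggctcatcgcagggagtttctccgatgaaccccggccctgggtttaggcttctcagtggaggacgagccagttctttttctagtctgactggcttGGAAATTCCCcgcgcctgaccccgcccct
Nfkbie, chr17:45555450-45555699, plus strand: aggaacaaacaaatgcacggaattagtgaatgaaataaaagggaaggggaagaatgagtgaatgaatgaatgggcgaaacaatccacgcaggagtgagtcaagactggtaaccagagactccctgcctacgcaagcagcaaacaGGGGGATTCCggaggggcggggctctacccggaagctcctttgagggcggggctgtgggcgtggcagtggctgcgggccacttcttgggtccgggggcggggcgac

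Rel, the subunit c-Rel, had overlapping matches on both strands that began 92 bases before the start. The match of Nfkbia lay 20 to 29 bases before its start, and that of Nfkbie 97 to 106 bases before its start. For Nfkb2 and Tnfaip3, stretches of 30 bases around the matches are shown, from 3 alternative windows of Nfkb2 and from 1 of the 2 windows of Tnfaip3.
Nfkb2, chr19:46304688-46304717, plus strand: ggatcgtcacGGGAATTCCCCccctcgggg
Nfkb2, chr19:46304707-46304736, plus strand: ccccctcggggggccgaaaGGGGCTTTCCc
Nfkb2, chr19:46305449-46305478, plus strand: tccgacggcaGGAATGTCCCcacaaaagcc
Nfkb2, chr19:46305695-46305724, plus strand: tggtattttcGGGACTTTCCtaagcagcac
Tnfaip3, chr10:19015516-19015545, minus strand: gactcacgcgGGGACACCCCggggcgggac
Tnfaip3, chr10:19015411-19015440, minus strand: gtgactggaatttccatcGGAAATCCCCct

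In Nfkb2 the match GGGAATTCCC reads the same on both strands and lies 30 to 39 bases before the RefSeq start of its window. All the Nfkb2 stretches shown lie inside the span that the deposited table gives for the gene. They are thus upstream of alternative starts and not of the whole gene. In Tnfaip3 the match GGGACACCCC meets the consensus on both strands, and the match nearest the gene ended 3 bases before the start.

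Of the subunits, all 5 had a negative fold change on structured PEEK, with a median log2 fold change of -0.06 against 0.0056 over all tested genes, and none passed the adjusted threshold. After a correction for the trend with GC content and transcript length, Nfkb2 and Relb turned positive, at log2 fold changes of 0.0090 and 0.022. Rela encodes p65, the subunit that carries the activation domain of the main dimer. Its level was 51.9, 48.8, 56.7 and 49.5 CPM in structured 1 to 4, against 58.5, 58.0, 57.1 and 57.1 CPM in smooth 1 to 4. The structured libraries were lower without overlap, though structured 3 came within the spread of the smooth group in FPKM, where the ranges overlapped. The mean was 51.7 ± 3.58 CPM on structured PEEK and 57.7 ± 0.718 CPM on smooth PEEK (SD, n = 4 each). The log2 fold change was -0.16 ± 0.05 (SE), a difference of -10.3% with a 95% interval of -17.2% to -2.95%. The edgeR BH-adjusted p was 0.122, and it was 0.0412 without structured 3, the library with the highest Rela among the structured ones.

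Nfkb1 encodes p105, which is processed to p50, the DNA-binding partner of p65. It had 171, 165, 175 and 163 CPM in structured 1 to 4, against 181, 187, 181 and 179 CPM in smooth 1 to 4. The surfaces did not overlap, and the nearest libraries were structured 3 and smooth 4. The log2 fold change was -0.11 ± 0.04 (SE; n = 4 each; edgeR BH-adjusted p = 0.118), a difference of -7.33% with a 95% interval of -12.2% to -2.14%. DESeq2 gave a log2 fold change of -0.11 with the adjusted p of 0.0486 named above. After the GC and length correction it was -0.07, with an unadjusted edgeR p of 0.132 across all genes. The ranges of 5 of the 10 genes did not overlap between surfaces, as was the case for 1955 genes, or 12.2% of those tested.

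Rel, Nfkb2 and Relb had overlapping ranges. Rel, which is most abundant in blood cells, had 49.8, 47.6, 45.1 and 53.4 CPM in structured 1 to 4 and 49.9, 51.5, 51.4 and 49.4 CPM in smooth 1 to 4. Structured 4 was the highest of all 8 libraries and structured 3 the lowest. Its log2 fold change was -0.05 ± 0.05 (SE; edgeR BH-adjusted p = 0.740; n = 4 each). Nfkb2, whose product p100 yields p52 in the non-canonical pathway, had 41.4, 45.9, 43.8 and 43.7 CPM in structured 1 to 4 and 45.7, 46.9, 46.6 and 43.0 CPM in smooth 1 to 4. Smooth 1 to 3 were close together and smooth 4 lay among the structured libraries. The log2 fold change of Nfkb2 was -0.06 ± 0.05 (SE; edgeR BH-adjusted p = 0.591). Relb, the partner of p52, had 12.1, 12.3, 11.2 and 13.2 CPM in structured 1 to 4 and 13.0, 11.6, 13.1 and 12.004 CPM in smooth 1 to 4. The surfaces covered almost the same range of Relb. Its log2 fold change was -0.03 ± 0.08 (SE; edgeR BH-adjusted p = 0.906), with a 95% interval from -0.22 to 0.16, and it was 0.0099 without structured 3.

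Among the inhibitors the directions were mixed, with 3 positive and 2 negative fold changes and a median log2 fold change of 0.06. Nfkbia encodes IkB-alpha, the IkB that is degraded and resynthesised fastest after stimulation. It had 106, 122, 112 and 105 CPM in structured 1 to 4, against 102, 104, 99.99 and 102 CPM in smooth 1 to 4. The structured libraries were higher without overlap, by little for structured 4 and most for structured 2. The mean was 111 ± 7.99 CPM on structured PEEK and 102 ± 1.75 CPM on smooth PEEK (SD, n = 4 each). The log2 fold change was 0.12 ± 0.05 (SE), or 8.82% with a 95% interval of 0.965% to 17.3%, at an edgeR BH-adjusted p of 0.206. Leaving out structured 2 gave a log2 fold change of 0.07, and the unadjusted edgeR p rose above 0.05 without smooth 3, smooth 4, structured 2 or structured 3.

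Nfkbie encodes IkB-epsilon, a slower feedback inhibitor that acts on p65 and c-Rel. It had the largest fold change of the 10 genes and the lowest level. Its counts were 264, 286, 314 and 256 units in structured 1 to 4 and 139, 248, 194 and 264 units in smooth 1 to 4, or 3.81, 4.22, 4.46 and 3.97 CPM against 2.09, 3.50, 3.01 and 3.66 CPM. The structured libraries were higher without overlap in CPM, smooth 1 was the lowest by far, and smooth 4 was close to structured 1. The coefficient of variation was 6.97% on structured PEEK and 23.1% on smooth PEEK. The log2 fold change was 0.42 ± 0.18 (SE; n = 4 each; edgeR BH-adjusted p = 0.234), with a 95% interval of 0.03 to 0.82. Without smooth 1 it was 0.28, and the unadjusted edgeR p rose above 0.05 without smooth 1, smooth 3, structured 2, structured 3 or structured 4. Without smooth 1 and structured 4 together it was 0.30, and with the hepatocyte level as a covariate it was 0.61 (edgeR BH-adjusted p = 0.110).

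Nfkbib encodes IkB-beta, which binds the same dimers as IkB-alpha and is lost more slowly after stimulation. It had 39.6, 39.1, 39.4 and 41.6 CPM in structured 1 to 4 and 39.3, 38.5, 36.2 and 39.5 CPM in smooth 1 to 4. The ranges overlapped, with structured 4 highest and smooth 3 lowest, and the log2 fold change was 0.06 ± 0.05 (SE; n = 4 each; edgeR BH-adjusted p = 0.595). Nfkbiz encodes IkB-zeta, a nuclear protein that works with p50 as a co-activator of secondary genes such as Lcn2. Its level was 45.2, 45.1, 45.3 and 40.8 CPM in structured 1 to 4 and 46.7, 46.9, 42.4 and 46.4 CPM in smooth 1 to 4. In each group 1 library lay below 3 that were close together, and the ranges overlapped (log2 fold change -0.05 ± 0.05, SE; edgeR BH-adjusted p = 0.719).

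Tnfaip3 encodes A20, a ubiquitin-editing enzyme that shuts off signalling upstream of IKK. It had 18.9, 18.6, 19.5 and 16.2 CPM in structured 1 to 4, against 22.4, 20.2, 22.3 and 19.9 CPM in smooth 1 to 4. The structured libraries were lower without overlap, and structured 3 and smooth 4 were the nearest. The mean was 18.3 ± 1.45 CPM on structured PEEK and 21.2 ± 1.33 CPM on smooth PEEK (SD, n = 4 each). The log2 fold change was -0.21 ± 0.07 (SE; edgeR BH-adjusted p = 0.134), a difference of -13.8% with a 95% interval of -22.9% to -3.60%. Without smooth 1 and structured 4 it was -0.13 (edgeR BH-adjusted p = 0.414).

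**Figure D2:**
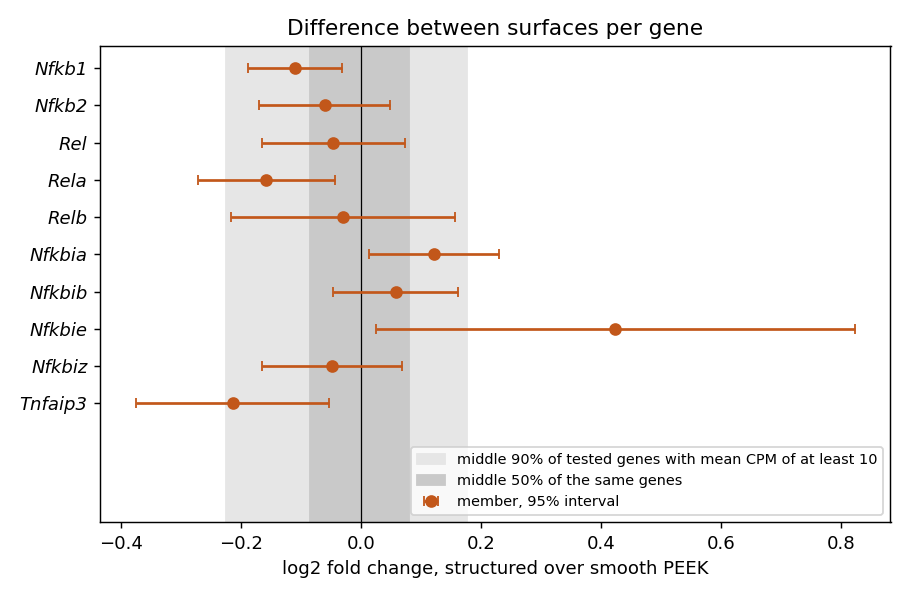
Log2 fold change of structured over smooth PEEK (x axis) for each gene (rows), with points for the edgeR estimate and bars for its 95% interval. Shaded bands hold the middle 50% and middle 90% of the 8884 tested genes with a mean CPM of at least 10, and the 9 genes other than Nfkbie have their points inside the wider band. Nfkbie, at 0.42, has a lower level and is not among the genes behind the bands.

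Among the 8884 tested genes with a mean level of at least 10 CPM, with no upper limit, the middle 90% of log2 fold changes lay between -0.23 and 0.18, and the 9 members above that level all fell inside it. Nfkbie, below that level, had a log2 fold change of 0.42, and the middle 90% of all 16006 tested genes lay between -0.50 and 0.54. Their ranks by p among the 16006 tested genes began with Nfkb1 at 1413, Rela at 1473 and Tnfaip3 at 1629. Over the 10 genes the coefficient of variation had a median of 6.90% on structured PEEK and 3.93% on smooth PEEK.

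Levels of different genes were compared in FPKM (fragments scaled to gene length and depth), as the authors deposited them. On structured PEEK, Nfkbia was highest at 64.8 ± 4.27 FPKM, a level above 95.1% of tested genes. Nfkbib at 17.3 ± 0.547 and Rela at 15.8 ± 1.16 FPKM followed and overlapped in range. Below them came Nfkb1 at 13.1 ± 0.474, Nfkb2 at 8.93 ± 0.323, Nfkbiz at 8.24 ± 0.408 and Rel at 6.16 ± 0.448 FPKM (SD, n = 4 libraries on structured PEEK). Relb at 2.94 ± 0.20, Tnfaip3 at 2.37 ± 0.19 and Nfkbie at 1.26 ± 0.0851 FPKM were lowest, and Nfkbia exceeded Nfkbie 51.3-fold.

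On smooth PEEK the order was the same except that Rela, at 17.5 ± 0.44 FPKM, stood above Nfkbib, at 16.5 ± 0.768 FPKM, again with overlapping ranges (SD, n = 4). Nfkbia was at 59.4 ± 1.40 and Nfkb1 at 14.1 ± 0.316 FPKM there. Nfkb2 at 9.29 ± 0.402 overlapped with Nfkbiz at 8.49 ± 0.459, and Relb at 2.99 ± 0.202 overlapped with Tnfaip3 at 2.74 ± 0.196 FPKM. Rel was at 6.33 ± 0.134 and Nfkbie at 0.936 ± 0.209 FPKM. On each surface the order was the same in TPM and in counts per exon length. Of the subunits, Rela and Nfkb1 had the most RNA and Relb the least on each surface.

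**Figure D3:**
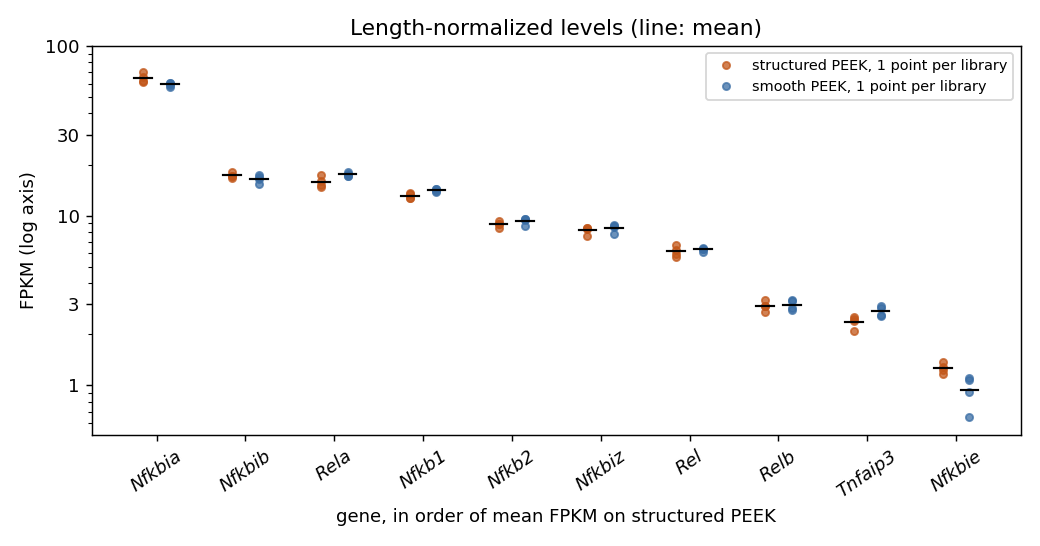
FPKM on a log axis for the 10 genes in order of their mean on structured PEEK, with 1 point per library (structured left, smooth right of each tick) and a line for each mean. Nfkbia lies above the rest at 64.8 FPKM on structured and 59.4 FPKM on smooth PEEK, and Nfkbie lies lowest at 1.26 and 0.936 FPKM.

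As a description of the balance between inhibitor and subunit, the ratio of Nfkbia to Rela in FPKM was 3.90, 4.79, 3.77 and 4.04 in structured 1 to 4 and 3.34, 3.43, 3.34 and 3.42 in smooth 1 to 4. The structured ratios were all above the smooth ones. The summed FPKM of the 5 subunits was 47.1, 45.6, 48.4 and 46.6 in structured 1 to 4 and 51.5, 50.8, 50.1 and 48.6 in smooth 1 to 4. The lowest smooth library and the highest structured library were 48.6 and 48.4 FPKM. These sums and ratios were formed after the values of single genes were known and were not tested.

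Some of these genes overlap neighbours in the table by their start and end positions, and an overlap of exons was not tested. Nfkb2 overlaps Psd and 4833438C02Rik on the other strand by 299 and 1292 bases, and these had mean FPKM values of 0.559 and 1.82. Nfkbib overlaps Ccer2 on the other strand, and Nfkb1 overlaps Gm43430 on its own strand, and both partners were near 0 FPKM. No source used here gives the strand setting of the authors' counting, so whether reads of such a pair were told apart is not known.

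The deposited table places Nfkb1 (ENSMUSG00000028163) at chr3:135584655-135691546 and Relb at chr7:19606217-19629438, both on the minus strand. Rela is at chr19:5637483-5648130 and Nfkb2 at chr19:46304320-46312385 on the plus strand, and Rel at chr11:23736847-23770970 on the minus strand. Nfkbia is at chr12:55489410-55492647, Nfkbib at chr7:28758251-28766640, Nfkbiz at chr16:55811375-55838899 and Tnfaip3 at chr10:19000910-19015410 on the minus strand, and Nfkbie at chr17:45555703-45563169 on the plus strand. No source used here names the authors' build.

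**Figure D4:**
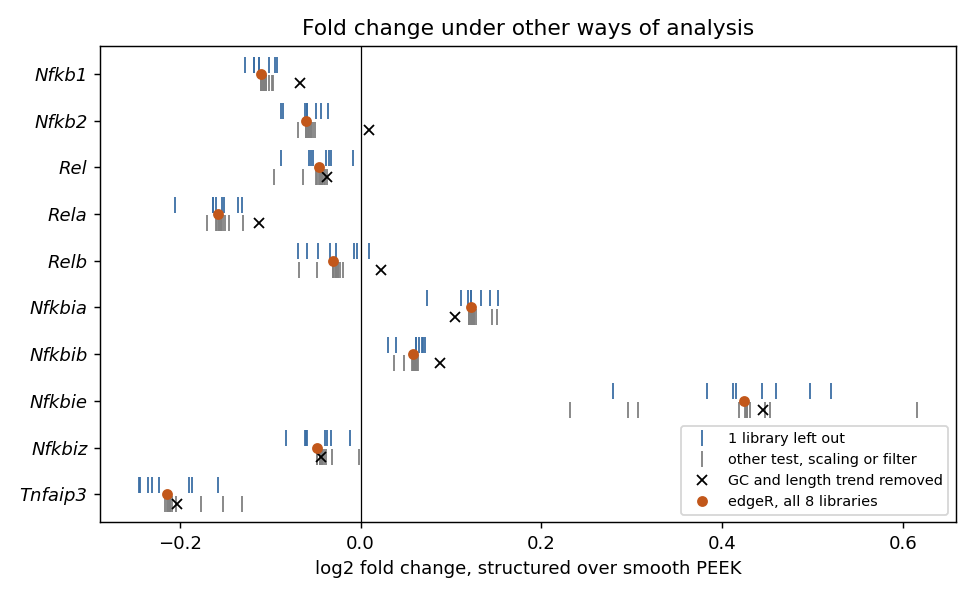
Log2 fold change of structured over smooth PEEK (x axis) for each gene under the edgeR test with all 8 libraries (orange), with 1 library left out (blue ticks), under other tests, scalings and filters (grey ticks) and after a trend correction for GC content and length (cross). The crosses of Nfkb2 and Relb lie right of 0, at 0.0090 and 0.022, and those of the other 8 genes lie on the side of their point.

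The other genes of the pathway were grouped by role, to see whether signals into or out of NF-kB differed between surfaces. Over all such lists, without the 10 genes above, edgeR called 10 of 156 tested genes (6.41%, against 3.75% of all tested genes). Of these 3 were higher and 7 lower on structured PEEK. DESeq2 called 23, and among all genes that it gave an adjusted p it called 14.2%, a share to set beside its counts below. With 1 library left out, edgeR called 3 to 12 of them. It called 3 without structured 4, 4 without smooth 3, 5 without smooth 2, structured 1 or structured 2, and 6 without smooth 4. The upper end of this range came from the fits without smooth 1 or structured 3. Voom with limma called 0 in each list below in which edgeR called 0. Of 19 receptors tested, edgeR called 0, 5 had an unadjusted p under 0.05, and the median log2 fold change was -0.08. DESeq2 gave 12 of the receptors an adjusted p and called 3, Cd14, Tlr4 and Tnfrsf11a. Cd14, a co-receptor for lipopolysaccharide and the most abundant of them, had 928 ± 26.8 CPM on structured PEEK and 847 ± 29.4 CPM on smooth PEEK (SD, n = 4 each; log2 fold change 0.13; edgeR BH-adjusted p = 0.0650). Of 26 adaptors and ubiquitin ligases, edgeR called 0, 9 had an unadjusted p under 0.05, and DESeq2 called 2, Irak4 and Traf3, both lower on structured PEEK. Myd88, the adaptor of most Toll-like receptors and the most abundant by FPKM, had a log2 fold change of 0.13 (edgeR BH-adjusted p = 0.226). Traf6, the ubiquitin ligase downstream of Myd88, had one of 0.0060 (edgeR BH-adjusted p = 0.966) and was named after its value was seen.

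Of 16 IKK subunits and related kinases, edgeR called 0, 1 had an unadjusted p under 0.05, and DESeq2 called 1, Ikbkg. Akt1, the most abundant by FPKM, had a log2 fold change of -0.02 (edgeR BH-adjusted p = 0.819). The genes that follow were named for their role after their values were seen, as were genes named for a DESeq2 call alone. The kinases Ikbkb and Chuk had log2 fold changes of -0.04 and 0.0050, and Map3k14, which drives the non-canonical pathway, -0.0085. Ikbkg, the regulatory subunit NEMO, had 46.2, 44.7, 40.5 and 43.2 CPM in structured 1 to 4 and 39.4, 33.8, 40.3 and 37.3 CPM in smooth 1 to 4 (log2 fold change 0.21 ± 0.06, SE; edgeR BH-adjusted p = 0.0972). Its libraries on structured PEEK were higher without overlap, and its p was the 1 under 0.05 in this group.

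Of 12 other IkB-like proteins and nuclear regulators, edgeR called 0, 4 had an unadjusted p under 0.05, and DESeq2 called 2, Bcl3 and Copb2. Copb2, a coatomer subunit placed on this list, was the most abundant and had a log2 fold change of 0.14 (edgeR BH-adjusted p = 0.0731). Bcl3, a nuclear IkB that binds p50 and p52, had 14.9, 16.4, 16.1 and 15.6 CPM in structured 1 to 4 and 15.5, 20.7, 21.9 and 21.8 CPM in smooth 1 to 4. Smooth 1 lay among the structured libraries, and the log2 fold change was -0.34 ± 0.10 (SE; edgeR BH-adjusted p = 0.0956). Without smooth 1 it was -0.45 (edgeR BH-adjusted p = 0.0080), and adjusted p-values over all alternatives ran from 0.0080 to 0.256. Nfkbid, another nuclear IkB, had a log2 fold change of -0.12 (edgeR BH-adjusted p = 0.204). Bcl3 and Nfkbid were named after their values were seen.

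Of 17 negative regulators and ubiquitin-binding proteins, edgeR called 2 (11.8%, against 3.75% of all tested genes), both lower on structured PEEK. The median log2 fold change was 0.03, and 5 had an unadjusted p under 0.05. DESeq2 gave 16 an adjusted p and called 4, Tnip3 higher and Tnip1, Zc3h12a and Zfp36 lower. Voom with limma called Zc3h12a and Zfp36, both lower. Both genes that edgeR called encode proteins that limit cytokine messages after transcription. Zfp36, or tristetraprolin, which marks AU-rich transcripts for decay, had 76.2, 75.9, 82.8 and 76.0 CPM in structured 1 to 4, against 103, 93.7, 97.8 and 83.3 CPM in smooth 1 to 4. The groups did not overlap in CPM, with smooth 4 next to structured 3 (log2 fold change -0.28 ± 0.06, SE; edgeR BH-adjusted p = 0.0329). In FPKM the ranges overlapped, with structured 3 at 22.5 and smooth 4 at 22.2. Zc3h12a, the ribonuclease Regnase-1, had 47.7, 45.5, 49.0 and 45.4 CPM in structured 1 to 4, against 50.9, 56.0, 63.1 and 54.9 CPM in smooth 1 to 4 (log2 fold change -0.26 ± 0.06, SE; edgeR BH-adjusted p = 0.0459). Zfp36 kept its call in 2 and Zc3h12a in 1 of the 8 fits that left out a library, with edgeR adjusted p-values over the alternatives reaching 0.145 and 0.178. Of the partners of A20, Tnip1 had a log2 fold change of -0.13 (edgeR BH-adjusted p = 0.0884), and Cyld, another deubiquitinase, had 0.06 (0.652); both were named after their values were seen.

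**Figure D5:**
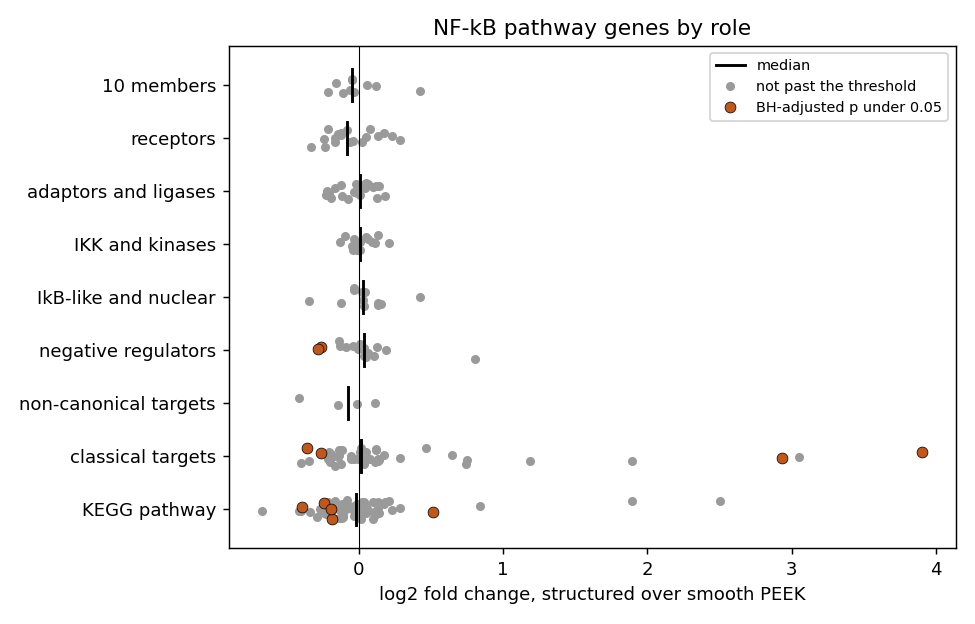
Log2 fold change of structured over smooth PEEK (x axis) for the 10 genes and for the other tested genes of each role (rows), with a bar at each median; orange marks an edgeR BH-adjusted p under 0.05, and vertical scatter has no meaning. The medians lie between -0.08 and 0.03, and the rightmost orange points are Saa3 and Lcn2 at 2.93 and 3.90.

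Of 45 classical NF-kB target genes tested, edgeR called 4 (8.89%, against 3.75% of all tested genes), of which 2 rose and 2 fell. The other 41 did not pass. Over the 45 the median log2 fold change was 0.01, and 19 had an unadjusted p under 0.05. DESeq2 gave 32 of them an adjusted p, but gave none to Saa3 or Il1b. It called 1 higher (Lcn2) and 8 lower on structured PEEK (Bcl3, Ccl3, Cxcl2, Mmp9, Nos2, Ptgs2, Tnip1 and Zc3h12a). Over all genes with an adjusted p it called 14.2%. Voom with limma called 3 higher (Il1a, Lcn2 and Saa3) and 2 lower (Nos2 and Zc3h12a), where it called 3.67% of all tested genes. Il1a, named after its value was seen, had an edgeR log2 fold change of 3.05 (edgeR BH-adjusted p = 0.151). Saa3, an acute-phase serum amyloid made by macrophages, rose to 6.51, 7.57, 7.11 and 9.40 CPM in structured 1 to 4, against 0.976, 1.13, 0.977 and 0.915 CPM in smooth 1 to 4. Every structured library was above every smooth one, and the log2 fold change was 2.93 ± 0.16 (SE; edgeR BH-adjusted p = 1.5e-05). Lcn2, lipocalin-2, rose to 11.1, 17.4, 15.7 and 15.7 CPM in structured 1 to 4, against 1.64, 0.396, 0.698 and 1.26 CPM in smooth 1 to 4 (log2 fold change 3.90 ± 0.35, SE; edgeR BH-adjusted p = 6.2e-04). Both kept their calls in all 8 fits that left out a library. Lcn2 is also a neutrophil granule gene. The neutrophil granule genes Mmp8 and Ngp had 0.750, 12.2, 11.98 and 12.8 CPM and 0.159, 5.33, 4.99 and 5.57 CPM in structured 1 to 4, and 0 in all 4 smooth libraries. Lcn2 was at 11.1 CPM in structured 1, where these 2 genes were low, and their part in its difference was not tested further.

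Nos2, the inducible nitric oxide synthase, fell to 71.1, 62.7, 60.2 and 63.7 CPM in structured 1 to 4, against 92.8, 76.2, 82.7 and 78.5 CPM in smooth 1 to 4. The groups did not overlap (log2 fold change -0.36 ± 0.07, SE; edgeR BH-adjusted p = 0.0214), and the call was lost without smooth 3, structured 2 or structured 4. The fourth called target was Zc3h12a, given above. Target genes named for their role after their values were seen were the cytokines and chemokines Tnf, Il1b, Cxcl2 and Ccl4. Tnf had 342, 350, 352 and 341 CPM in structured 1 to 4 and 342, 351, 347 and 296 CPM in smooth 1 to 4, and the groups overlapped (log2 fold change 0.05; edgeR BH-adjusted p = 0.672). Il1b was low, at 2.00, 0.517, 0.654 and 1.05 CPM in structured 1 to 4 and 0.375, 0.297, 0.341 and 0.125 CPM in smooth 1 to 4 (log2 fold change 1.89 ± 0.50, SE; edgeR BH-adjusted p = 0.0603). Cxcl2 had a log2 fold change of -0.40 (edgeR BH-adjusted p = 0.0742) and Ccl4 one of 0.0075 (0.973).

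Of 4 non-canonical pathway targets tested, edgeR called 0, 0 had an unadjusted p under 0.05, and DESeq2 called 0 of the 2 that it gave an adjusted p. The most abundant by FPKM, Ltb, the lymphotoxin-beta ligand, had a log2 fold change of 0.11 (edgeR BH-adjusted p = 0.472). The table annotates 92 genes to the KEGG NF-kB pathway, of which 82 were tested. EdgeR called 5 (6.10%, against 3.75% of all tested genes), of which 1 rose and 4 fell. The median log2 fold change over the 82 was -0.03. DESeq2 gave 67 of them an adjusted p and called 4 higher and 10 lower, Nfkb1 among them, where it called 14.2% of all genes with an adjusted p. Csnk2b, the regulatory subunit of casein kinase 2, fell to 114 ± 3.97 CPM on structured PEEK, against 135 ± 2.25 CPM on smooth PEEK (SD, n = 4 each; log2 fold change -0.24 ± 0.04, SE; edgeR BH-adjusted p = 0.0098), a call that held in all 8 fits that left out a library. Ddx58, the RNA sensor RIG-I, rose to 15.7 ± 1.73 CPM on structured PEEK, against 11.01 ± 1.27 CPM on smooth PEEK (log2 fold change 0.51 ± 0.11, SE; edgeR BH-adjusted p = 0.0285), and was called in 2 of the 8 fits that left out a library. Among those that fell, the kinase Syk and the phospholipase Plcg2 each had a log2 fold change of -0.19 (edgeR BH-adjusted p = 0.0394 for Syk and 0.0334 for Plcg2), and were named after their values were seen. With 1 library left out, Syk was called in 0 of the 8 fits, with edgeR adjusted p-values of 0.0544 to 0.121, and Plcg2 in 2. After the GC and length correction the log2 fold changes were -0.09 for Syk and -0.15 for Plcg2 (edgeR BH-adjusted p = 0.353 and 0.144).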

How the data were processed

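RNA-seq libraries of RAW264.7 cells on structured (4) and smooth (4) PEEK were analysed from 1 deposited gene table. Per the labels' protocols, poly(A) RNA was selected, libraries were strand-marked with dUTP and had molecular identifiers in their adapters, and sequencing gave read pairs of 150 bases. Per the submitters' processing notes, cutadapt 1.9 and HISAT2 2.2.1 were used. No source used here names the counter, its strand setting, the annotation or the build. The authors deposited estimated counts, which are whole numbers, per the file headers. Low values pile up at multiples of 4 (32.1% of values from 1 to 40, against 25.3% from 400 to 4000). The FPKM values were also deposited, scaled by the authors to gene length and depth, per the file headers.

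From these, edgeR 4.0.16 (R 4.3.3) tested structured minus smooth on the estimated counts, with TMM scaling, filterByExpr at a minimum count of 10, and BH adjustment over 16006 genes, while 10842 were left out. All 10 genes passed the filter. CPM is the count divided by the TMM-scaled total, per 1000000. SE and 95% intervals come from the fit. Alternatives were DESeq2 1.42.0, voom and limma 3.58.1, limma on log2(FPKM + 0.5, 0.1 or 1), other scalings and filters, counts divided by 4, a correction for the trend with GC content and length (values for 99.9% of tested genes), a replicate block and leaving out each library. Using the hepatocyte level as a covariate and leaving out smooth 1 and structured 4 together were added after seeing the data. The edgeR, voom and DESeq2 fits, the trend correction, the replicate block and limma on log2 values were tested on simulated counts. The other settings and the promoter search were not. From each list, up to 3 called genes with the smallest p, or else the most abundant gene by FPKM, were named, and other names are marked as chosen after their values were seen. The result of 1 gene is not reported here, though counts include it. The 10 genes and all lists were chosen with earlier results of these data known. Planned comparisons of protein sequences were not run. Library numbers follow the library names. Plots were made in Python 3.11.15 with matplotlib 3.10.9.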

Additional observations from a re-analysis of the deposited data

Results flagged for a closer look

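Nfkbiz stood out on each surface for 1 library below 3 that lay close together. Its coefficient of variation was 4.94% on structured PEEK and 4.75% on smooth PEEK. Structured 4 was at 40.8 CPM, where structured 1 to 3 were at 45.2, 45.1 and 45.3 CPM. Smooth 3 was at 42.4 CPM, where smooth 1, 2 and 4 were at 46.7, 46.9 and 46.4 CPM. In each case the gap to the nearest library, as a share of the group's range, exceeded Dixon's 95% critical value for a group of 4. The 10 genes gave 20 groups of 4 libraries and 2 were flagged, where chance flags about 1 in 20.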

How the results depend on the processing

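The number of the 10 genes called was 0 by edgeR and stayed 0 under the alternatives run, except 1 with DESeq2 (Nfkb1) and 0 to 1 over the fits that left out a library (Rela, without structured 3). Of all tested genes edgeR called 601. The count was 1375 with DESeq2, 188, 202 and 174 on log2 FPKM with pseudocounts of 0.5, 0.1 and 1, 189 with no filter, 140 with the GC and length trend removed, 362 with the hepatocyte level as a covariate, 137 without smooth 1 and structured 4 together, and 88 (without structured 4) to 597 (without structured 3) with 1 library left out. Of the 156 other pathway genes tested edgeR called 10. The count was 23 with DESeq2, 4 with each FPKM pseudocount, 4 with no filter, 6 with the trend removed, 5 without smooth 1 and structured 4, and 3 to 12 with 1 library left out. The cause of these moves was not tested, apart from fewer genes tested or fewer libraries where a setting removes them.

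With the trend removed, signs turned for Nfkb2 (0.0090), Relb (0.022), Akt1 (0.040), Ikbkb (0.070), Chuk (-0.0080), Map3k14 (0.085) and Ccl4 (-0.062), all log2. With the covariate Traf6 turned to -6.9e-04, and without smooth 1 and structured 4 Chuk turned to -0.078 and Map3k14 to 0.0038. With 1 library left out, log2 fold changes ranged from -0.069 to 0.0099 for Relb, -0.042 to 0.058 for Chuk, -0.046 to 0.032 for Map3k14, -0.012 to 0.024 for Traf6, -0.0019 to 0.079 for Tnf and -0.051 to 0.067 for Ccl4.

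The trend correction left 3 of the 10 genes at an unadjusted p under 0.05 (Rela, Nfkbie and Tnfaip3), and leaving out smooth 1 and structured 4 left 2 (Nfkb1 and Nfkbia). Without smooth 3, structured 2 or structured 3, 3 were left (Nfkb1, Rela and Tnfaip3), so that Nfkbia and Nfkbie dropped out. The deviations of same-numbered libraries had correlations of -0.06, 0.08, -0.0045 and -0.16. These values do not show a pairing by number, but they cannot exclude that same-numbered cultures were set up together. With a replicate block 499 genes and 0 of the 10 were called. Nfkbie had the lowest counts of the 10 genes, and dividing counts by 4 left its unadjusted p at 0.0392, against 0.0389.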
